A study of Mus musculus with 6 samples.

Results

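Mapt and 8 other genes whose products bind microtubules or tubulin were followed through a table of splicing events from N2a (Neuro-2a) cells, which derive from a mouse neuroblastoma. The genes are Mapt, Map2, Map4, Map1b, Map7d1, Clasp1, Clasp2, Mapre2 and Stmn1, and every event listed under one of these symbols was taken. This gave 93 of the 45595 events in the table, in 9 of its 9594 genes. Per the labels, 3 libraries came from N2a cells with a knockout of Hnrnpdl and 3 from wild-type N2a cells, and the series asked how alternative splicing differs between them. The product of Hnrnpdl, hnRNP DL, binds RNA and belongs to the hnRNP proteins that take part in splicing. The labels do not say how the knockout was made, whether it is 1 clone, or whether the 3 libraries of a genotype came from separate cultures, so p-values cover the spread among these libraries alone. The table arranges the libraries as set 1 and set 2, with 3 libraries each, and ties neither name to a genotype. Every difference is therefore set 1 minus set 2, or set 1 over set 2, with no genotype attached.

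Microtubule-associated proteins bind along the microtubule wall, follow its growing end, or hold its tubulin subunits in solution. Tau, the product of Mapt, and its relatives MAP2 and MAP4 bind the wall through a row of similar repeats near the C-terminus, while the long N-terminal part projects away from it. In neurons, splicing of Mapt decides how many repeats and how many short N-terminal inserts the protein carries. Peripheral neurons also use the long exon 4A, which gives the form known as big tau. CLASP1, CLASP2 and the MAPRE2 protein (EB2) follow growing ends, MAP1B is abundant in growing axons, MAP7D1 belongs to the MAP7 family that helps recruit kinesin-1, and stathmin, the product of Stmn1, sequesters tubulin.

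The junction reads of all events, among which 1 read may count more than once, summed to between 13573870 and 16707466 in set 1 and between 13501749 and 18185394 in set 2. Library 1 of set 1 lay away from the rest of set 1 in a principal component analysis of log2 junction totals per gene, with a first component (40.1% of the variance) of -5.83 against 18.35 and 22.01 for the other two, while set 2 lay between -18.0 and -7.68. Hnrnpdl itself had a junction total of 399, 429 and 433 CPM (counts-per-million, here of the junction reads summed over the tested genes' totals, 4066105 to 5041375 in set 1 and 4052146 to 5469495 in set 2, not of the reads of all events) in set 1 and of 470, 502 and 502 in set 2, and no set was assigned a genotype from these values. Of 18 neuroblast markers, 9 had enough reads to be tested, and their summed totals were 2163, 1550 and 1460 CPM in set 1 and 2474, 2296 and 2196 in set 2. The neuroblast markers Dbh, for the enzyme that turns dopamine into noradrenaline, and Chgb, for a secretory granule protein, were lower in set 1 (log2 ratio -2.37, adjusted p = 0.00347, and -1.02, adjusted p = 0.0132, limma), though Chgb no longer passed without library 2 of set 1 (0.0782) or library 2 of set 2 (0.0797). Dbh and Chgb were the only ones of the 9 that passed, beside 1.06% of all genes. The log2 ratios of the other tested markers ran from -0.94 for Gap43 to 0.02 for Elavl4. The part of cell state in the results below was not tested. Of 18 markers of glia, leukocytes, endothelium, fibroblasts and epithelium, 4 genes were in the table and none of them had the mean count of 20 reads needed for a test.

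The inclusion level of an event is the share of its junction reads that come from the longer or included form, each form scaled by its length, on a scale of 0 to 1. Of the 93 events, 84 had a mean of 20 or more reads and were tested. Of these, 37 were used in both forms, meaning a mean level between 0.05 and 0.95, and they fell in 6 genes: 15 events in Mapt, 8 in Clasp1, 4 each in Map2, Map4 and Clasp2, and 2 in Map7d1. This was 44.0% of the tested events of these genes, beside 30.3% of all tested events. The events of 1 gene share junctions and reads and are not independent. Some of the 37 were listed as pairs of exclusive exons, but the junction reads given below do not show the exons as exclusive. The share of such a pair is no measure of a choice between forms.

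A call needed an adjusted p under 0.05 and a change of at least 0.10 in the moderated quasi-binomial test, which compares the read shares of the sets against the spread between libraries. That rule called 1 of the 84 events, exon 4A of Mapt, beside 0.0279% of all tested events. An unadjusted p under 0.05 was reached by 9 of the 84 events, or 10.7%, beside 3.8% of all events. Of these 9, 7 lay in Mapt, and 2 were among the 64 tested events outside Mapt (3.125%). Libraries of set 1 and set 2 were fully separated in 10 of the 84 events (11.9%), with set 1 higher in 7 and lower in 3, beside 5.55% of all events. Among the 37 events used in both forms, 8 had an unadjusted p under 0.05, beside 6.06% of all such events, and 8 were fully separated, beside 10%. The median size of the change among events used in both forms was 0.105 in Mapt and 0.042 over the 22 such events of the other genes, beside 0.028 over all such events. In the authors' deposited table, 3 of the 93 events met an adjusted p under 0.05 and a change of 0.10 or more, all in Mapt, beside 0.645% of all events.

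In Mapt, exon 4A was included more often in set 1. Exon 4A encodes a long stretch of the projecting part of tau and occurs in 2 lengths that differ by the acceptor site used, 759 bases (chr11:104298498-104299256, plus strand, build mm10) and 711 bases (chr11:104298546-104299256), both coding and both keeping the reading frame. The 759-base form had an inclusion level of 0.267, 0.502 and 0.468 in set 1, against 0.221, 0.155 and 0.186 in set 2. All 3 libraries of set 1 lay above all of set 2, and library 1 of set 1 lay closest to set 2. The mean was 0.412 ± 0.127 in set 1 and 0.187 ± 0.0330 in set 2 (SD, n = 3 each), a change of 0.225 with an adjusted p of 0.0263 in the moderated quasi-binomial test (limma) and of 0.00197 in the authors' deposited table.

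The call depended on the test and on single libraries. Without library 1 of set 1 the change was 0.298 with an adjusted p of 6.86e-04 in the quasi-binomial test. Leaving out any one of the other 5 libraries ended the call, with changes of 0.180 to 0.242 and adjusted p-values of 0.1002 to 0.848, and limma on logit levels of all 6 libraries gave an adjusted p of 0.776. Because the sets did not overlap, leaving out 1 library could not reverse the direction of the change. The call also depended on how the dispersion prior was written, since an earlier implementation of the same form of the test made none.

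The mean reads of both forms differed between the sets, in opposite directions. On the junctions of the included form, which join exon 4 to exon 4A and exon 4A to exon 5, there were 119, 103 and 109 reads in set 1 and 124, 53 and 59 in set 2. Scaled to CPM, the included form had 23.6, 24.5 and 26.8 in set 1, against 22.7, 12.4 and 14.6 in set 2. The libraries of set 1 were all above those of set 2, with library 1 of set 2 close behind. On the junction that skips exon 4A there were 163, 51 and 62 reads in set 1 and 219, 144 and 129 in set 2, or 32.3, 12.1 and 15.3 CPM in set 1, against 40.0, 33.7 and 31.8 CPM in set 2. Here library 1 of set 1 lay within the range of set 2, and the other two libraries of set 1 lay below it. The mean ratio of set 1 over set 2 was 1.51 for the included form and 0.565 for the skipping form. These reads of single forms were not tested.

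**Figure D1:**
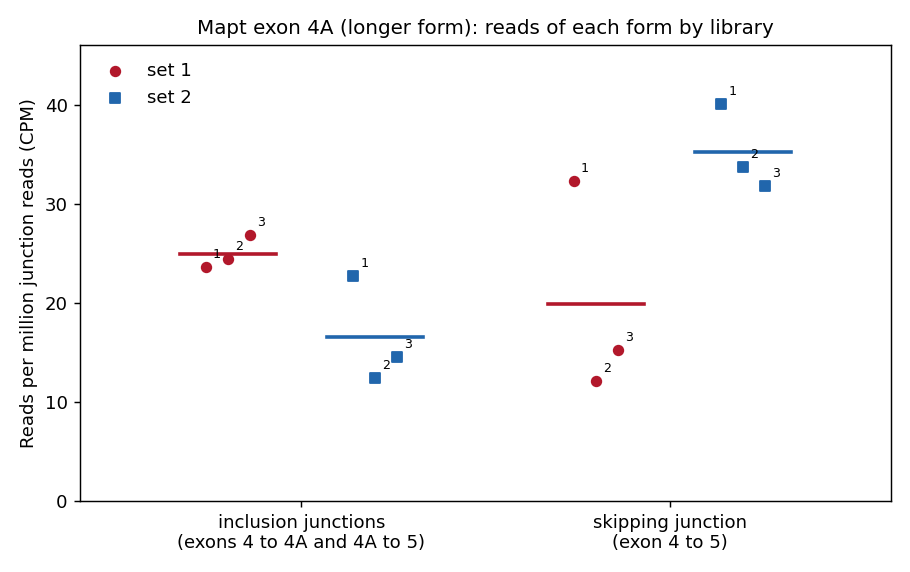
Reads of the 2 forms of Mapt exon 4A in each library, in CPM (y axis), with set 1 in red circles left of set 2 in blue squares, the library number beside each point and a line at the mean of 3 libraries. Inclusion reads of set 1 lie between 23.6 and 26.8 CPM, and the skipping reads of library 1 of set 1 (32.3 CPM) lie with those of set 2.

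The 711-base form shares the skipping junction and the downstream junction with the longer one and is no separate evidence. Its level was 0.264, 0.480 and 0.426 in set 1, against 0.226, 0.143 and 0.213 in set 2. The sets did not overlap, and the change of 0.196 had an adjusted p of 0.218 in the quasi-binomial test (limma) and of 0.00540 in the authors' deposited table. Without library 1 of set 1 it was 0.259, with an adjusted p of 0.00908.

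The segment that separates the 2 acceptors is shown because it is the only difference between the forms of exon 4A; its last 2 bases, in capitals, are the AG before the downstream acceptor (chr11:104298498-104298545, plus strand, mm10, GENCODE transcript sequence).
Mapt exon 4A segment: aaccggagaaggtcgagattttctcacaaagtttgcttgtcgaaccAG
Within exon 4A, the share of reads that used the upstream acceptor was 0.512, 0.598 and 0.675 in set 1, against 0.432, 0.596 and 0.376 in set 2. The sets overlapped, and the change of 0.127 had an adjusted p of 0.746 (quasi-binomial test, limma), or was 0.081 without library 3 of set 2 and 0.191 without library 2 of set 2. Both acceptors were in use in every library.

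Exon 4 and exon 4A were also listed as a pair of exclusive exons, but that listing is not borne out. The junction from exon 3 straight to the 711-base exon 4A had 0, 0 and 0 reads in set 1 and 0, 1 and 0 in set 2. The share of this pair is therefore no measure of a choice between exon 4 and exon 4A. The share of exon 4 in that pair, with the 711-base form as the other exon, was 0.703, 0.549 and 0.572 in set 1, against 0.691, 0.834 and 0.786 in set 2. Library 1 of set 1 lay just above the lowest library of set 2, and the change of -0.162 did not pass after adjustment (adjusted p = 0.746, quasi-binomial test, limma). Its reads are largely those of the exon 4A events above.

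Exons 2 and 3 of Mapt encode the short acidic inserts of the N-terminal part. Exon 2 (87 bases, chr11:104287123-104287209, plus strand, mm10) is one of the exons called in the authors' deposited table and is shown for that reason.
Mapt exon 2: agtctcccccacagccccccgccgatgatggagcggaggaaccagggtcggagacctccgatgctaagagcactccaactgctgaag
Counted between exons 1 and 5, its level was 1, 0.728 and 0.801 in set 1, against 0.620, 0.622 and 0.662 in set 2. All libraries of set 1 were higher than all of set 2. The mean was 0.843 ± 0.141 in set 1 and 0.635 ± 0.0237 in set 2 (SD, n = 3 each), with an adjusted p of 0.00540 in the authors' deposited table and of 0.181 in the quasi-binomial test (limma). The skipping junction, which joins exon 1 to exon 5, had 0, 18 and 12 reads in set 1 and 58, 37 and 23 in set 2. In library 1 of set 1, 0 of 116 reads skipped the exon. By counting error alone this allows up to 2.59% of the reads, a share not scaled by form length. Without that library the change was 0.130 in place of 0.208, with an adjusted p of 0.849.

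Most exon 2 skipping joined exon 1 to exon 4 rather than to exon 5. Counted that way, the level of exon 2 was 0.327, 0.451 and 0.481 in set 1, against 0.302, 0.344 and 0.262 in set 2. Library 1 of set 1 lay within the range of set 2 and the other two above it, and the change of 0.117 did not pass (adjusted p = 0.746, quasi-binomial test, limma). Exons 2 and 4 were also listed as a pair of exclusive exons, though they occur together as well. The junction from exon 2 to exon 4 had 19, 12 and 9 reads in set 1 and 25, 15 and 14 in set 2. In that listing the share of exon 2 was 0.396, 0.566 and 0.527 in set 1, against 0.365, 0.375 and 0.317 in set 2. That pair did not overlap between the sets, and its change of 0.144 had an adjusted p of 0.746.

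Exon 3 (87 bases, chr11:104289908-104289994), counted between exons 2 and 4, had levels of 0.825, 0.835 and 0.875 in set 1, against 0.773, 0.799 and 0.803 in set 2. The sets did not overlap, with a small change of 0.053 (adjusted p = 0.746, quasi-binomial test, limma). Between exons 2 and 5 it had 0.441, 0.458 and 0.516 in set 1, against 0.396, 0.454 and 0.402 in set 2, and the sets overlapped. Exon 4 (66 bases, chr11:104294859-104294924) had, between exons 2 and 5, levels of 0.556, 0.436 and 0.514 in set 1, against 0.571, 0.634 and 0.616 in set 2. Here set 1 was lower in every library, by 0.105 in the mean, with an adjusted p of 0.746. Between exons 1 and 5 exon 4 had 1, 0.672 and 0.782 in set 1, against 0.739, 0.733 and 0.808 in set 2, and the change of 0.058 turned to -0.033 without library 1 of set 1. The remaining events of exon 4 and of the 711-base exon 4A, counted against exon 3 upstream, stayed at 0.933 or above in every library. For exon 4A this level does not measure inclusion after exon 3. The junction from exon 3 to exon 4A had 0, 0 and 0 reads in set 1 and 0, 1 and 0 in set 2, and the inclusion reads came almost only from the junction with exon 5.

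**Figure D2:**
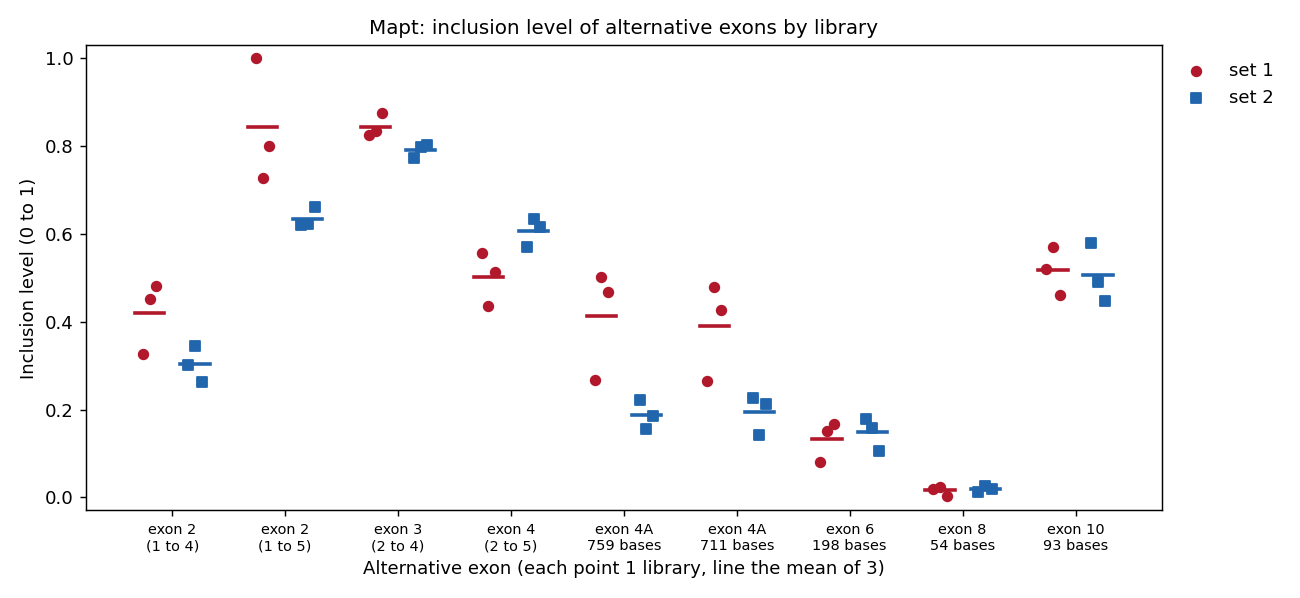
Inclusion level (y axis, 0 to 1) of the alternative exons of Mapt in each library, with the flanking exons used for the count in brackets, set 1 in red circles left of set 2 in blue squares, and a line at the mean of 3 libraries. Exon 4A is higher in set 1 (means 0.412 and 0.187 for the 759-base form), whereas exon 10 lies near 0.5 in both sets.

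Downstream of exon 4A no Mapt event was called. Exon 6 (198 bases, chr11:104305212-104305409), another exon of the projecting part, was mostly skipped, with levels of 0.080, 0.152 and 0.167 in set 1, against 0.179, 0.159 and 0.106 in set 2. The sets overlapped (adjusted p = 0.746, quasi-binomial test, limma). The 97-base version of exon 6, which starts at an acceptor 101 bases downstream and shifts the frame, had 0.049, 0.103 and 0.110 in set 1, against 0.090, 0.068 and 0.046 in set 2. Among reads that entered exon 6, the upstream acceptor took 0.928, 0.789 and 0.907 in set 1, against 0.963, 0.962 and 0.940 in set 2. Every library of set 1 was lower, by 0.080 in the mean, on only 20 reads of the rarer acceptor in all 6 libraries (adjusted p = 0.746, quasi-binomial test, limma). Without library 2 of set 1 the change was -0.0375. Exon 8 (54 bases) was almost always skipped, with levels of 0.004 to 0.024 in set 1 and of 0.013 to 0.026 in set 2. An unnumbered 97-base exon between exons 10 and 11 had levels of 0.024 or less in every library.

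Exon 10 encodes an extra microtubule-binding repeat of tau, and Map2 and Map4 have an alternative exon of the same length in the same role. All 3 exons have 93 bases. Those of Map2 (chr1:66431527-66431619) and Map4 (chr9:110072613-110072705) are printed so that 1 homologous unit can be read side by side in both genes, and capitals mark the bases that they share (plus strand, mm10, GENCODE transcript sequence).
Map2 repeat exon: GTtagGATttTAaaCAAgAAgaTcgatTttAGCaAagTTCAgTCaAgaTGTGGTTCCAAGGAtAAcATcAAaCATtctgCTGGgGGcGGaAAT
Map4 repeat exon: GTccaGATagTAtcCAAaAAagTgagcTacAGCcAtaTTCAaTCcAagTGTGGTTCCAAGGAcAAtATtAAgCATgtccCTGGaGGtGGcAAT
Of the 93 positions, 59 (63.4%) were the same in these exons.

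The repeat exon of Mapt had levels of 0.521, 0.570 and 0.462 in set 1, against 0.580, 0.491 and 0.448 in set 2. The sets overlapped, with means of 0.518 ± 0.0541 in set 1 and 0.506 ± 0.0673 in set 2 (SD, n = 3 each). The length-scaled level lay near 0.5 in both sets, and the change of 0.011 had an adjusted p of 0.991 (quasi-binomial test, limma). In Map2 the level was 0.466, 0.699 and 0.853 in set 1, against 0.523, 0.560 and 0.615 in set 2. The libraries of set 1 spread on both sides of set 2, on a mean of 53.0 reads, and the change of 0.107 had an adjusted p of 0.746. It was 0.0165 without library 3 of set 1 and 0.210 without library 1 of set 1. In Map4 the repeat exon had levels of 0.748, 0.895 and 0.877 in set 1, against 0.748, 0.898 and 0.736 in set 2. These sets overlapped as well, with a change of 0.046 (0.017 to 0.098 on leaving out 1 library) and an adjusted p of 0.746.

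**Figure D3:**
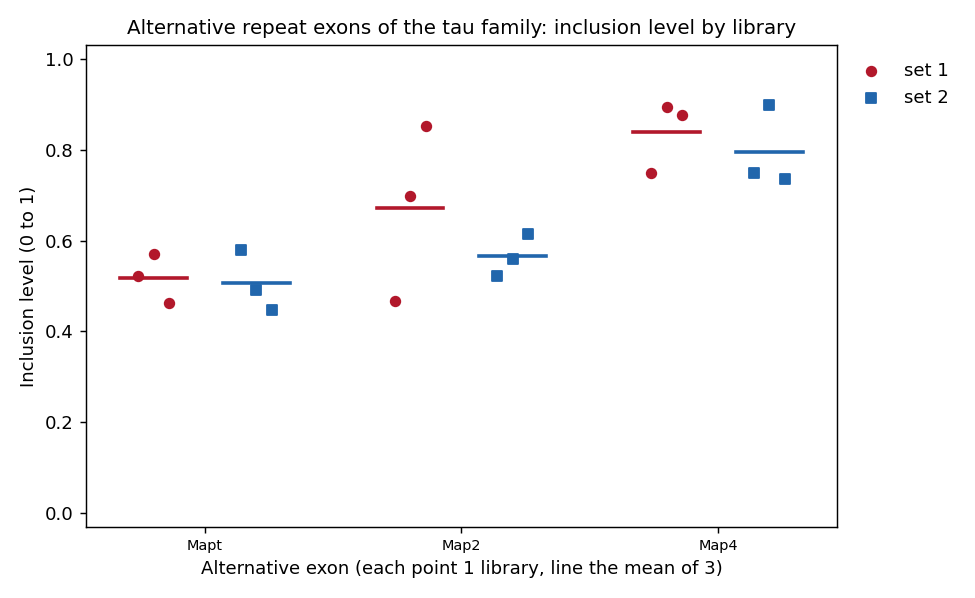
Inclusion level (y axis, 0 to 1) of the 93-base repeat exon of Mapt, Map2 and Map4 in each library, with set 1 in red circles left of set 2 in blue squares and a line at the mean of 3 libraries. The sets overlap in all 3 genes, and the mean of Map4 is 0.840 in set 1 and 0.794 in set 2.

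Map4, the member of the tau family made in most tissues, had 15 events, of which 4 were used in both forms. A 222-base exon (chr9:110064228-110064449, plus strand, mm10, coding, in frame) had levels of 0.975, 0.939 and 0.954 in set 1, against 0.902, 0.912 and 0.902 in set 2. It was higher in every library of set 1, with means of 0.956 ± 0.0181 in set 1 and 0.905 ± 0.00577 in set 2 (SD, n = 3 each). The change of 0.051 had an adjusted p of 0.0440 in the authors' deposited table and of 0.746 in the quasi-binomial test (limma), and lay under the change of 0.10 needed for a call. Skipping reads numbered 6, 11 and 7 in set 1 and 20, 14 and 15 in set 2, and the event had 352.5 reads on average. A 3-base choice of donor site took 0.060, 0.064 and 0.086 of reads in set 1, against 0.051, 0.029 and 0.065 in set 2. A listed pair of exclusive exons of 69 and 123 bases had an inclusion share of 0.462, 0.521 and 0.607 in set 1, against 0.610, 0.560 and 0.545 in set 2. Neither the donor choice nor this pair separated the sets. Counted singly, the 69-base exon was at 0.951 or above and the 123-base exon at 0.969 or above in every library. The listing of the pair as exclusive is therefore not borne out.

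Map2, the chief microtubule-associated protein of dendrites, had the fewest reads per base of the 9 genes. At a 3-base choice of acceptor sites (chr1:66401444-66401521), the main form had a level of 1 in all 3 libraries of set 1, against 0.949, 0.937 and 0.976 in set 2. The sets did not overlap, but the rarer form rested on 4, 3 and 1 reads in set 2, and its 0 of 163 reads in set 1 allow up to 1.84% (adjusted p = 0.746, quasi-binomial test, limma). A 135-base coding exon (chr1:66416732-66416866) was nearly always skipped, with levels of 0, 0 and 0.013 in set 1, against 0.043, 0.043 and 0.038 in set 2. It rested on 0, 0 and 1 inclusion reads in set 1 and on 5, 3 and 3 in set 2. The 3 further events used in both forms lay in exons annotated as UTR or noncoding, and none separated the sets. One of them, a 63-base exon, had 0.195, 0.286 and 0.235 in set 1, against 0.283, 0.198 and 0.170 in set 2. A listed pair of exclusive exons of 51 and 65 bases had inclusion shares of 0.263 to 0.452 in set 1 and of 0.312 to 0.438 in set 2. The other listed pair had 0.204 to 0.340 in set 1 and 0.221 to 0.293 in set 2. Counted singly, each exon of these pairs had a level of 0.961 or above in every library. Their listing as exclusive is therefore not borne out.

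In Map7d1 a 96-base intron (chr4:126237060-126237155, minus strand, mm10) was retained in most reads, at 0.773, 0.771 and 0.757 in set 1, against 0.763, 0.726 and 0.836 in set 2. An in-frame 111-base exon (chr4:126238522-126238632) had 0.471, 0.538 and 0.577 in set 1, against 0.498, 0.480 and 0.481 in set 2. In both events the sets overlapped, with changes of -0.008 for the intron and 0.042 for the exon.

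The CLASP genes carry several very short exons. The sequences of the 5 exons of 18 to 27 bases that are described here are given because 2 of them, 1 in each gene, resemble each other (plus strand, mm10, GENCODE transcript sequence, no part in capitals).
Clasp1 27-base exon: gatccagatctgctaaccctgctggtg
Clasp1 24-base exon: ctgttaggagacgccaggagcaag
Clasp2 24-base exon, upstream: aggatacttctgacaagatggatg
Clasp2 18-base exon: gaacagcatctgatgatg
Clasp2 24-base exon, downstream: ctcttaggagacatacggactaag
They lie at chr1:118523321-118523347 and chr1:118541675-118541698 in Clasp1, and at chr9:113858581-113858604, chr9:113860120-113860137 and chr9:113878750-113878773 in Clasp2. The 24-base exon of Clasp1 and the downstream one of Clasp2 shared 17 of 24 bases. The upstream Clasp2 exon shared 9 of 24 with the Clasp1 exon and 7 of 24 with the downstream Clasp2 exon.

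The 27-base exon of Clasp1 had levels of 0.352, 0.306 and 0.224 in set 1, against 0.328, 0.314 and 0.299 in set 2. Its 24-base exon had 0.915, 0.645 and 0.537 in set 1, against 0.703, 0.691 and 0.664 in set 2. In both exons the libraries of set 1 lay on both sides of set 2, and the change of the 24-base exon was 0.013, or -0.095 without library 1 of set 1. The similar downstream exon of Clasp2 had 0.754, 0.552 and 0.769 in set 1, against 0.755, 0.807 and 0.769 in set 2. The upstream exon of Clasp2 was mostly skipped, with 0.252, 0.206 and 0.059 in set 1, against 0.277, 0.219 and 0.330 in set 2. The sets overlapped there too, with a change of -0.103 (adjusted p = 0.746, quasi-binomial test, limma), or -0.0463 without library 3 of set 1. The 18-base exon of Clasp2 had 0.473, 0.653 and 1 in set 1, against 0.633, 0.566 and 0.359 in set 2. This event averaged 31.0 reads, and the level of 1 rested on 17 inclusion and 0 skipping reads. Its change of 0.189 (adjusted p = 0.746, quasi-binomial test, limma) was 0.0437 without library 3 of set 1. A frame-shifting 17-base exon of Clasp2 was at 0.107 or less in every library.

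**Figure D4:**
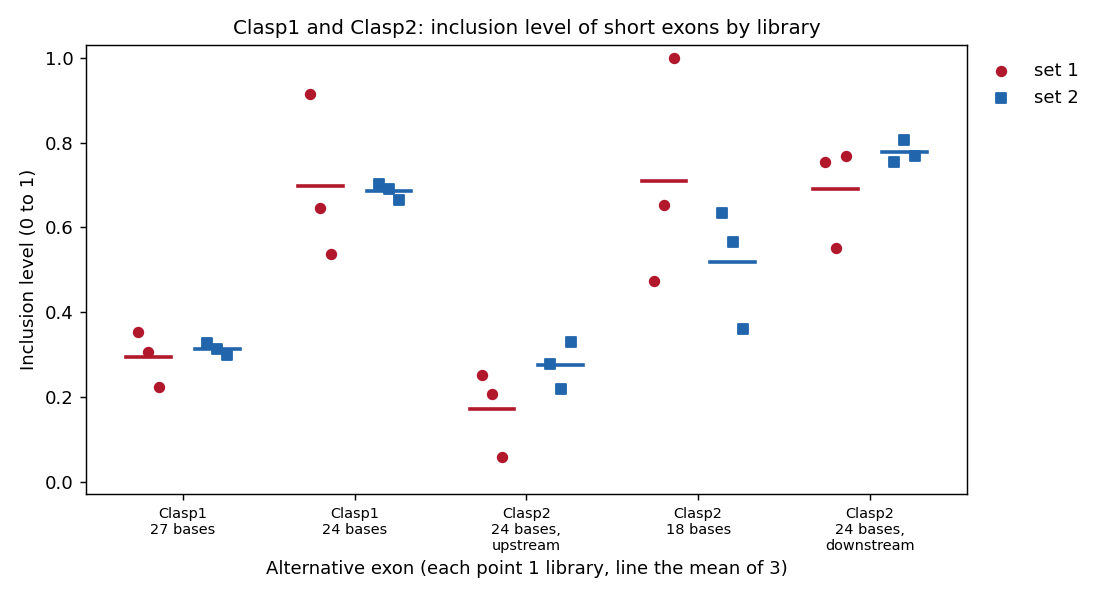
Inclusion level (y axis, 0 to 1) of 5 short exons of Clasp1 and Clasp2 in each library, with the exon length on the x axis, set 1 in red circles left of set 2 in blue squares, and a line at the mean of 3 libraries. The libraries of set 1 are more spread than those of set 2 in the 24-base exon of Clasp1 (0.537 to 0.915 in set 1, 0.664 to 0.703 in set 2).

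The longer alternative exons of Clasp1 overlapped between the sets as well. A 108-base exon (chr1:118531978-118532085) had 0.256, 0.330 and 0.340 in set 1, against 0.237, 0.225 and 0.334 in set 2. The 63-base exon that follows it (chr1:118536135-118536197) was tested in more than 1 event. Counted after the 108-base exon, it had 0.632, 0.069 and 0.182 in set 1, against 0.459, 0.346 and 0.275 in set 2. Counted against the junction that skips both exons, it had 0.207, 0.026 and 0.062 in set 1, against 0.076, 0.117 and 0.076 in set 2. These events averaged 22.2 and 59.7 reads in that order. In their listing as exclusive, the 108-base exon took 0.569, 0.948 and 0.886 in set 1, against 0.790, 0.687 and 0.859 in set 2. Some reads joined both exons to each other, so this share is no measure of a choice between them. In each of these comparisons library 1 of set 1 lay farthest from the other libraries of its set. A further listed pair, of 108 and 159 bases, had inclusion shares of 0.551, 0.528 and 0.381 in set 1, against 0.529, 0.651 and 0.594 in set 2. Counted singly, both exons of this pair had a level of 0.98 or above in every library, so its listing as exclusive is not borne out.

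Map1b, Mapre2 and Stmn1 had no event used in both forms. The 3 events of Map1b, among them its 6490-base exon, the single event of Mapre2 and the 1 tested event of Stmn1 had levels of 0.989 or more in every library. The other two events of Stmn1 had mean counts of 9.17 and 6 reads and were not tested. These genes are described by their junction totals alone.

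The junction total of a gene is the number of reads on its most read event, in CPM, and follows expression and the splicing of that event together. Fewer cells that express a gene and less RNA per cell cannot be told apart in such bulk libraries. None of the 9 genes passed the test of these totals (limma on log2(CPM + 1), adjusted p under 0.05), beside 1.06% of all genes. An unadjusted p under 0.05 was reached by Mapt and Map1b, beside 9.45% of all genes. For Mapt the total, taken at exon 6, was 69.4, 49.6 and 50.7 CPM in set 1, against 90.9, 64.8 and 65.4 in set 2. Library 1 of set 1 lay above 2 of the libraries of set 2, and the log2 ratio of -0.38 ± 0.17 (SE) had an adjusted p of 0.528. It was -0.22 without library 1 of set 2 and -0.53 without library 1 of set 1. For Map1b the totals were 481, 418 and 420 CPM in set 1, against 478, 603 and 596 in set 2, with a log2 ratio of -0.34 ± 0.11 (SE) and an adjusted p of 0.235. Map4 was the one gene of the 9 whose sets did not overlap, beside 14.1% of all genes, with 95.6, 83.3 and 72.8 CPM in set 1, against 71.1, 71.4 and 72.1 in set 2. Its lowest library of set 1 lay just above set 2, and the log2 ratio of 0.22 ± 0.13 (SE) had an adjusted p of 0.692. Without library 1 of set 1 it was 0.12.

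The other genes differed less or with larger errors. Map2 had 21.03, 28.5 and 23.6 CPM in set 1, against 18.8, 22.2 and 18.3 in set 2, a log2 ratio of 0.28 ± 0.19 (SE), or 0.17 without library 2 of set 1. Mapre2 had 102, 117 and 91.7 CPM in set 1, against 118, 116 and 120 in set 2, a log2 ratio of -0.20 ± 0.12 (SE), or -0.12 without library 3 of set 1. Both overlapped between the sets. Clasp1 (-0.07), Clasp2 (-0.08), Map7d1 (-0.08) and Stmn1 (0.00) had log2 ratios within 0.1 of no change. Stmn1 had 2541, 2192 and 2001 CPM in set 1, against 2218, 2307 and 2175 in set 2.

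**Figure D5:**
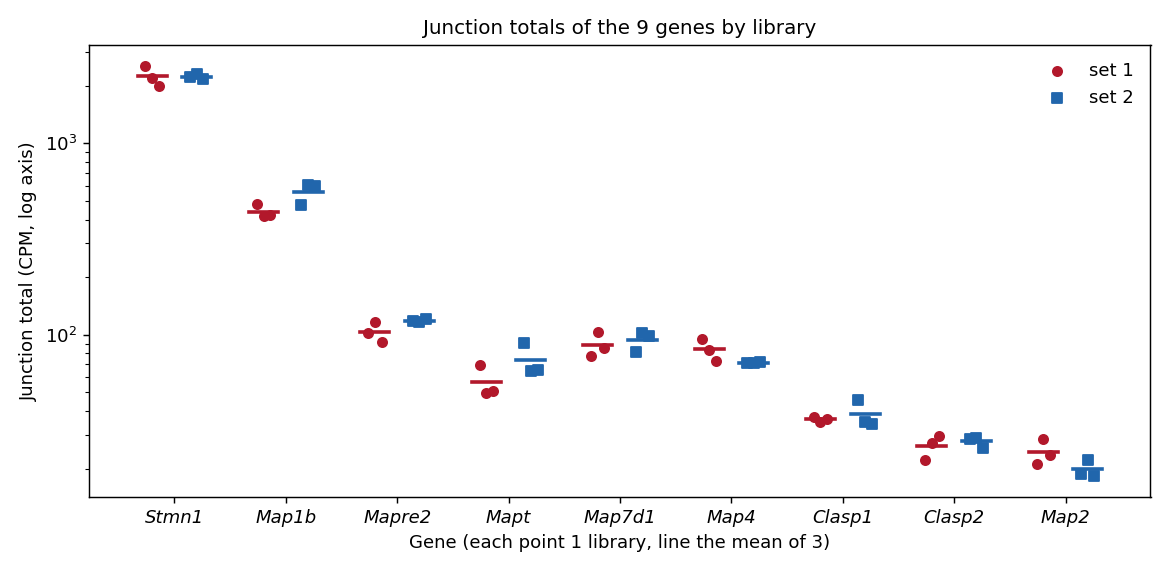
Junction totals of the 9 genes in each library, in CPM on a log axis, ordered by the level per length, with set 1 in red circles left of set 2 in blue squares and a line at the mean of 3 libraries. Stmn1 is highest at 2001 to 2541 CPM in set 1 and 2175 to 2307 CPM in set 2, and Map4 is the gene whose sets do not overlap.

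The level per length took the CPM of each form for every 100 bases of that form's length, with both forms added. Its mean over the 6 libraries was 751.5 for Stmn1, followed by 168 for Map1b. Then came Mapre2 at 40.3, Mapt at 38.4, Map7d1 at 30.7 and Map4 at 26.98, each with a range over libraries that overlaps that of its neighbour among these 4 genes. Clasp1 at 14.1, Clasp2 at 13.3 and Map2 at 9.78 were lowest, and again the ranges of neighbours overlapped. Within each library, Stmn1, Map1b, Map4 and Clasp2 were each above the next gene in the order. The 3 genes whose totals were most like that of Mapt over the 6 libraries, by Pearson's r of log2 CPM among all tested genes, were Enpp1 (r = 0.997), Rpsa (r = 0.995) and Upf2 (r = 0.995). This is a description of 6 libraries that share their depth and their grouping. Enpp1, for example, had 12.7, 6.65 and 6.39 CPM in set 1, against 21.9, 10.5 and 11.4 in set 2.

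Other genes of the microtubule system were taken from 3 lists. Of 64 further microtubule-associated proteins, 48 had a testable total. None was higher or lower in set 1 at an adjusted p under 0.05 (limma), beside 1.06% of all genes. An unadjusted p under 0.05 was reached by 1 of the 48, beside 9.45% of all genes, and their median log2 ratio was 0.01, like that of all genes (0.01). Of 33 tubulins, tubulin cofactors and tubulin-modifying enzymes, 22 were tested, of which 1 fell and none rose at the adjusted threshold, beside 1.06% of all genes, with a median of 0.00. An unadjusted p under 0.05 was reached by 4 of the 22, beside 9.45% of all genes. The one that fell was Tbca, a cofactor that holds beta-tubulin during folding, at 330, 203 and 188 CPM in set 1, against 400, 410 and 446 in set 2 (log2 ratio -0.84 ± 0.17 (SE), adjusted p = 0.0309, limma). Every library of set 1 lay below set 2, library 1 least so. Without library 1 of set 1 the log2 ratio was -1.10 (adjusted p = 4.70e-06, limma), and without any one of the other 5 libraries it was between -0.88 and -0.69 and did not pass (adjusted p-values of 0.0514 to 0.178). Of 30 kinases and phosphatases that act on tau, 23 were tested, and their median was 0.03. None passed the adjusted or the unadjusted threshold (0 genes, limma), beside 1.06% and 9.45% of all genes in that order.

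No tested splicing event of the 3 lists was called by the quasi-binomial test, beside 0.0279% of all tested events. The tested events were 260 of further microtubule-associated proteins, 133 of the tubulin list and 153 of the tau kinase list. An unadjusted p under 0.05 was reached by 10, 0 and 7 of them in that order, beside 3.8% of all tested events. The authors' deposited table called 3, beside 0.645% of all events. One was a 27-base exon of Mark3 (chr12:111651958-111651984), a kinase that phosphorylates tau in its repeats, with levels of 0.314, 0.418 and 0.547 in set 1, against 0.271, 0.212 and 0.219 in set 2. The sets did not overlap, with an adjusted p of 0.0194 in the authors' deposited table and of 0.2995 in the quasi-binomial test (limma). The others, in Mark2 and in the ubiquitin ligase gene Mid1, had mean counts of 8.67 and 16.5 reads, under the minimum of 20, and were not tested.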

How the data were processed

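RNA sequencing libraries were made from total RNA (Trizol, NEBNext Ultra kit), per the labels' protocols. HISAT2 2.1.0, Bowtie2 2.2.3, HTSeq 0.6.0 and the build mm10 are named in the submitters' processing notes without their roles. The deposited table has the layout of rMATS, per the file headers. Its version and its annotation were not given in the sources used here. Per event and library, the authors deposited whole-number counts of junction reads of each form and an inclusion level (a fraction), and for each event a p-value, an adjusted p and a difference, per the file headers. Levels recomputed from the counts matched the deposited levels to within 0.0005.

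The 39419 events that averaged 20 or more reads were tested in R 4.3.3 with limma 3.58.1 by a moderated quasi-binomial test: the binomial deviance between sets over a dispersion moderated along the reads of the rarer form, with the prior from events with 5 or more such reads and a floor of 1, fitted within each kind of event and adjusted by Benjamini-Hochberg over all kinds. An earlier implementation of the same form, written apart from this one, made no call, so a call near the threshold depends on how the dispersion prior is written. Junction totals (8285 genes) were scaled by their own sum in each library, not by the reads of all events, and tested with limma's trend on log2(CPM + 1). An edgeR test had been planned for them and was not run. The counts, given as lists within cells, were split by library for limma. For genes with few reads, the pseudocount of 1 pulls this log2 ratio towards 0. On simulated totals this test made false calls above its nominal rate, so a call near the threshold is uncertain.

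Named events were those the authors called, all Mapt events that averaged 20 or more reads, up to 6 events used in both forms per gene, and events with an unadjusted p under 0.05; the 135-base exon of Map2 falls outside this rule and was named after its values were seen. The genes, lists, tests and printed sequences were chosen with earlier results of these data known. Gene symbols and exon annotation follow the table and GENCODE vM21 (mm10), and Mapt exon numbers follow common use. Alternatives tried are named in the closing section. The sequence of the Mapt repeat exon is not reported here.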

Additional observations from a re-analysis of the deposited data

How the results depend on the processing

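No paired analysis was possible because the columns of the table carry no replicate numbers. The edgeR test with TMM factors planned for the junction totals was not run, and DESeq2 was not run either. Over all events, 11 were called: limma on logit levels called 0 (1172 with an unadjusted p under 0.05), no minimum change 24, a dispersion prior along the total count 64, shares not scaled by form length 4, and leaving out 1 library 2 to 19, the highest without library 1 of set 1. Among the events of the 9 genes, 1 was called: 0 by limma, 3 with the total-count prior, and 0 to 2 on leaving out 1 library. With the total-count prior the 711-base form of Mapt exon 4A and exon 2 between exons 1 and 5 were called too. Of all genes, 88 had a called total, and 26 to 283 on leaving out 1 library, again highest without library 1 of set 1. The count among the 9 genes was 0 under every alternative run.

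The sign of 17 results, none of them called, changed on leaving out 1 library, and the cause was not tested. Changes in level ranged from -0.033 to 0.131 for Mapt exon 4 between exons 1 and 5, from -0.036 to 0.0115 for exon 6, from -0.0075 to 0.0025 for exon 8, from -0.0178 to 0.0482 for exon 10 and from -0.0047 to 0.0073 for the unnumbered exon. They ranged from -0.002 to 0.0547 for the 63-base exon of Map2 and from -0.0343 to 0.0337 for one of its listed exon pairs. For the retained intron of Map7d1 they ranged from -0.0325 to 0.0225. In Clasp1 they ranged from -0.0512 to 0.138 for the listed pair of 108 and 63 bases and from -0.0487 to 0.0153 for the 27-base exon. They ranged from -0.2345 to 0.047 for the 63-base exon, counted after the 108-base exon, and from -0.095 to 0.094 for the 24-base exon. In Clasp2 they ranged from -0.010 to 0.0435 for the 17-base exon. Log2 ratios of junction totals ranged from -0.141 to 0.064 for Clasp1, from -0.163 to 0.034 for Clasp2, from -0.196 to 0.013 for Map7d1 and from -0.092 to 0.080 for Stmn1, which was -0.010 when scaled by the median of ratios, an alternative chosen with a pseudocount of 0.5 after the data were seen. Leaving out 1 library moved 40 of 54 changes and ratios by over 1.5 times or to the other sign. Of 631 alternative values of named events and totals, 588 kept their sign and their side of the threshold. For events, settings that alter only the test or its filters return the same change in level, so its sign could not turn there. Events with few reads of the rarer form could not show small changes at this depth.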
